A study of Mus musculus with 16 samples.

Results

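The Zic genes encode zinc finger transcription factors, and the 4 members described here are Zic1, Zic2, Zic4 and Zic5, picked by gene name from the 27807 genes of the table. Their RNA was measured by poly-A sequencing in mouse embryonic stem (ES) cells and in embryoid bodies (EBs), the floating aggregates that such cells form, on the way to glutamatergic neurons. Embryoid bodies were harvested at EB4, when retinoic acid had not yet been given, at EB5, a day into the treatment, and at EB8, further into it. Cells were wild-type (WT, Taf4+/+) or homozygous for a Taf4a null allele (KO, Taf4-/-), which gave 8 groups of genotype and stage with 2 libraries each, 16 in all. Taf4a codes for a core part of TFIID, the complex that carries the TATA-binding protein to promoters. The ES lines came from blastocysts of crosses between heterozygous mice, 2 independent lines of each genotype, and all were grown on embryonic fibroblast feeders with LIF. The labels number the libraries of a group but do not say which line a number stands for, nor whether EBs of a line were made more than once, so the p-values cover the spread between these libraries.

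Zic proteins carry a tandem of C2H2 zinc fingers related to those of the Gli factors of Hedgehog signalling, and they act as regulators of transcription in early ectoderm, dorsal neural tube, cerebellum and neural crest. Zic1 and Zic4 are best known from the dorsal neural tube and the cerebellum. Zic2 is needed for the closure of the neural tube and for the midline of the forebrain. Zic5 takes part in the closure of the neural tube and the formation of neural crest, and Zic2 is also known from ES cells and epiblast.

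Depth ran from 22442118 to 40711826 reads per library, and the ES libraries were deeper than the EB libraries. Taf4a itself was at 1590.9 to 1959.6 normalised read counts in the 8 WT libraries and at 1972.8 to 2400.0 in the 8 KO libraries, so that it was not lower in KO. The null allele is a deletion of internal exons, which a count per gene does not resolve, and the genotype labels were therefore not checked. The level of the X chromosome, the median centred log2 value of its tested genes, was 0.35 to 0.54 in 5 libraries and -0.25 to -0.16 in the remaining 11. The 5 were the KO libraries numbered 2 at all stages and the WT ES library numbered 2. The WT library numbered 2 at ES therefore differed in X-linked expression from those numbered 2 at later stages. Chromosome 9, which holds Zic1 and Zic4, had levels of -0.07 to 0.06 and chromosome 14, which holds Zic2 and Zic5, of -0.11 to 0.06.

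The members lie as 2 head-to-head pairs. On mouse build NCBI37 (mm9), Zic1 (ENSMUSG00000032368) spans chr9:91252896-91260648 on the minus strand and Zic4 (ENSMUSG00000036972) spans chr9:91257251-91284186 on the plus strand. In the annotation these genes overlap by 3398 bases on opposite strands, and 60 of these are exonic in both. The overlap comes from the first annotated exon of Zic4 alone. The coding transcript Zic4-001 starts 3160 bases beyond the start of Zic1, outside that gene. Zic5 (ENSMUSG00000041703) spans chr14:122856017-122864899 on the minus strand and Zic2 (ENSMUSG00000061524) spans chr14:122874604-122879074 on the plus strand, with 9704 bases between them. Within that gap, 4606 bases from Zic5 and 1802 from Zic2, lies the lincRNA gene 2610035F20Rik on the minus strand. All 4 members are protein coding, and their exons together cover 5.693 kb for Zic1, 10.335 kb for Zic4, 4.186 kb for Zic2 and 4.889 kb for Zic5.

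**Figure D1:**
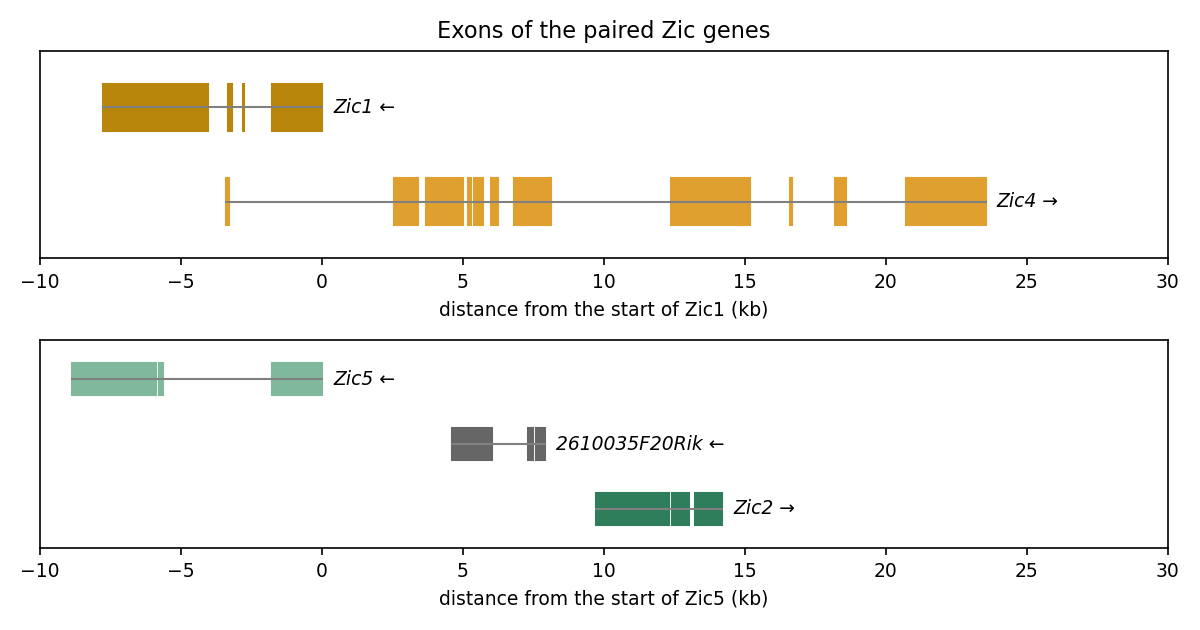
Exons of Zic1 and Zic4 (top) and of Zic5, the lincRNA gene 2610035F20Rik and Zic2 (bottom), drawn to scale as distance in kb from the start of Zic1 or Zic5, with an arrow for the strand. Boxes are exons merged over transcripts and lines join the exons of a gene. Zic1 and Zic4 overlap by 3398 bases, while 9704 bases separate Zic5 from Zic2.

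The 4 genes share coding sequence, which bears on how far a short read tells them apart. The stretch of 54 bases, the length of a read here, that is most alike in all 4 members is shown first, with capitals at the 6 positions where at least 1 member differs. The other 48 positions are identical. The stretch is in coding exon sequence of each gene, on the strand of the gene. In Zic1 it lies in exon 1 of 3 (chr9:91259074-91259127), in Zic4 in exon 3 of 5 (chr9:91273987-91274040), in Zic2 in exon 1 of 3 (chr14:122875716-122875769) and in Zic5 in exon 1 of 2 (chr14:122863314-122863367), all on NCBI37.
Zic1: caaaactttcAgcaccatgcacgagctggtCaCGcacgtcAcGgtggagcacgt
Zic4: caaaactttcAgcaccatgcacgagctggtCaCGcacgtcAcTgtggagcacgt
Zic2: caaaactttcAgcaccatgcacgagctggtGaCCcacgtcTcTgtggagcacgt
Zic5: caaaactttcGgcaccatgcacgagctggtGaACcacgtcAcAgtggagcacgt

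Against Zic1, this stretch differs at 1 position in Zic4, 4 in Zic2 and 5 in Zic5. Of the 54-base words of the annotated transcripts, 11 of 5670 in Zic1 and 10 of 5372 in Zic4 occurred exactly in another gene, and 18 in each lay within 2 mismatches of another of the 4 members. Neither Zic2 nor Zic5 had such a word. The libraries were prepared with an unstranded kit, so reads from the 60 exonic bases that Zic1 and Zic4 share cannot be told apart.

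The sequences before the starts of Zic1 and Zic5, a member of each pair, are shown next. Whether they bear on the courses of the pairs was not tested. The 150 bases from 250 to 101 before the start site are given 5′ to 3′ on the gene's strand, from RefSeq on GRCm38.p6 (Zic1 at chr9:91365869-91366018, Zic5 at chr14:122465759-122465908, both minus). Capitals mark matches, on either strand, to CCAAT (the CCAAT box), GGGCGG (the GC box), TATAAA (the TATA box) or AGGTCA (the half-site of nuclear receptors, among them the retinoic acid receptors). TGACCT in Zic5 reads AGGTCA on the other strand. No 2 of these motifs share letters at a match shown.
Zic1: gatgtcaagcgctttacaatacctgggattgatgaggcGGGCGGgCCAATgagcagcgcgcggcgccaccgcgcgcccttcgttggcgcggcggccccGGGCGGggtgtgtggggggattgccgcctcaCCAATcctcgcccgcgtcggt
Zic5: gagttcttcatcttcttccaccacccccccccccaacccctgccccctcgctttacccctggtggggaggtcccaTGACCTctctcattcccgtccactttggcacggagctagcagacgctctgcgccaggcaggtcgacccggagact

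Within the 250 bases before its start, Zic1 held 2 CCAAT boxes, 205 and 121 bases before the start, and 2 GC boxes, 212 and 152 bases before it. Zic5 held 1 AGGTCA match, 175 bases before the start, and Zic4 held none of the 4 motifs. No TATAAA was found in these 3 windows. Of 32851 promoters of the same length, 33.9% held CCAAT, 32.7% GGGCGG, 12.4% TATAAA and 14.0% AGGTCA. These matches describe letters and are not shown to be bound. Zic2 had no entry among these sequences.

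Which Zic genes the cells expressed changed with the stage. Counts were divided by the length of the exons merged over all annotated transcripts, so that genes can be set roughly side by side. For Zic4 these were 10.335 kb in 11 merged exons, while its coding transcript Zic4-001 has 5 exons. Its level and share per kb may thus be understated. Zic5 and Zic2 had mean levels of 258 and 241 normalised counts per kb in WT ES cells, and their libraries overlapped. Zic1 was at 2.65 and Zic4 at 0.0440 counts per kb there. At EB4 in WT, Zic2 was highest, at 1650 counts per kb (SD 55.1, n = 2), followed by Zic5 at 801 (SD 145, n = 2), with no overlap of libraries. Zic1 and Zic4 stood at 2.01 and 0.210.

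At WT EB5 the order was Zic2 at 633, Zic5 at 269, Zic1 at 36.1 and Zic4 at 0.918 counts per kb, with no overlap between neighbours. At WT EB8 Zic1 led with 245 counts per kb (SD 103, n = 2), then Zic2 with 186 (SD 68.8) and Zic5 with 115 (SD 54.0). Those 3 overlapped in their libraries, so that their order is not set, whereas Zic4, at 9.14, lay below all of them. In KO EB8 the order was Zic2 at 182, Zic5 at 104, Zic1 at 45.5 and Zic4 at 3.07 counts per kb, with no overlap between neighbours. Zic1 was thus the highest of the members by its mean in 1 group alone, WT EB8.

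As shares of the 4 members' summed counts per kb, Zic5 and Zic2 made up 51.2% and 48.2% in WT ES cells. At WT EB4, Zic2 made up 67.3% and Zic5 32.6%, against 62.0% and 37.8% at KO EB4, where the 2 libraries had Zic2 at 55.6% and 68.4%. Zic1 made up 0.568% in WT ES cells, 4.48% at WT EB5 and 44.1% at WT EB8 (43.8% and 44.3% in the 2 libraries). In KO it made up 1.26% at EB5 and 12.8% at EB8, with 9.85% and 15.8% in the 2 EB8 libraries. Zic4 stayed at or below 1.68% in each library. A share moves with each of the 4 genes, and no test was made on shares.

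**Figure D2:**
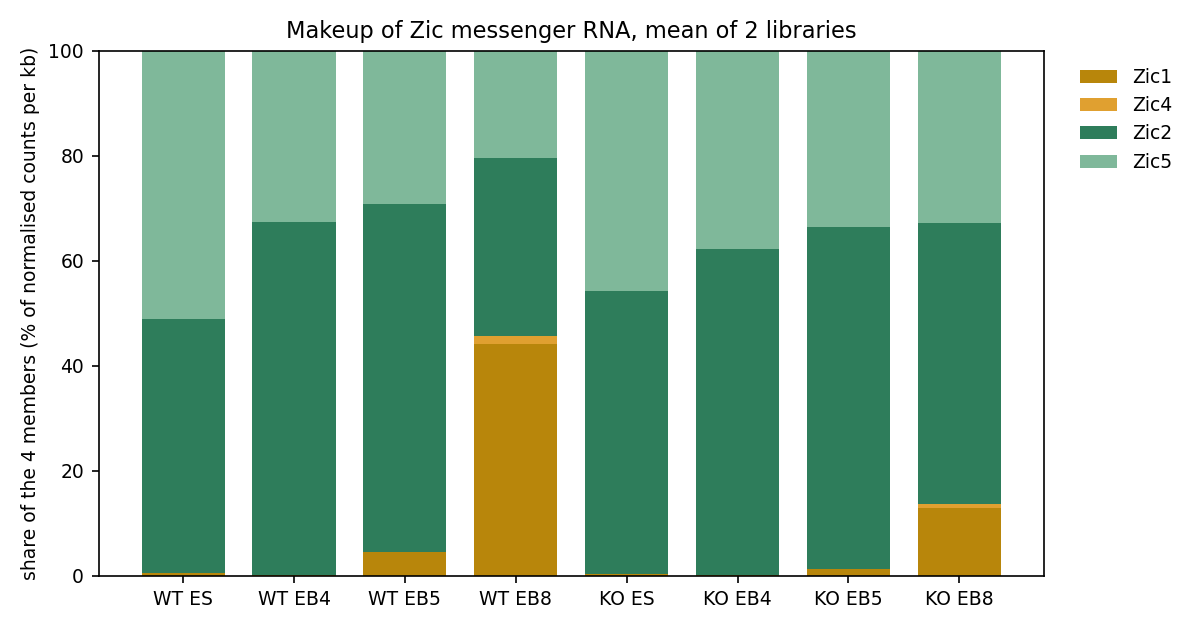
Share of each member in the summed normalised counts per kb of exon of Zic1, Zic4, Zic2 and Zic5, in percent, for the 8 groups of genotype and stage. Each bar stacks the mean shares of 2 libraries. Zic1 makes up 44.1% in WT EB8 and 12.8% in KO EB8, and Zic2 and Zic5 hold nearly all of the other bars.

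Zic1 had a late onset in WT cells. At ES its 2 libraries had normalised read counts of 24.6 and 5.6, with 17.5 and 5.4 at EB4, 149.6 and 261.4 at EB5 and 980.8 and 1810.5 at EB8. Both EB5 libraries lay above all ES and EB4 libraries, and both EB8 libraries above these again. From EB4 to EB5, the first day of retinoic acid, Zic1 rose by 4.19 on the log2(normalised count + 1) scale (SE 0.71, limma adjusted p 0.00552), a ratio of the means of 17.9. From EB5 to EB8 it rose by a further 2.75 (SE 0.71, limma adjusted p 0.0289), a ratio of 6.79. Between ES and EB4 the log2 change was -0.26 (limma adjusted p 0.833).

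Zic4, its neighbour, ran at a far lower level. Its counts were 0.9 and 0 in WT ES cells and 2.2 and 2.1 at WT EB4, where all values were at or below 3 reads, taken as the floor of detection. They were 4.7 and 14.3 at EB5 and 64.1 and 124.9 at EB8, with no overlap between the 2 stages. From EB5 to EB8 Zic4 rose by 3.28 (SE 0.88, limma adjusted p 0.0333), a ratio of the means of 9.96. The EB5 mean was at least 2.92-fold higher than the floor at EB4, and that step did not pass (limma adjusted p 0.473).

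Zic2 peaked before retinoic acid was added. In WT its counts were 949.3 and 1065.2 at ES, 7070.1 and 6743.7 at EB4, 3530.6 and 1766.9 at EB5, and 575.5 and 982.5 at EB8. The EB4 libraries were the 2 highest of the 8, without overlap. Zic2 rose by 2.78 from ES to EB4 (SE 0.50, limma adjusted p 0.00448), a ratio of the means of 6.86. The log2 change from EB4 to EB5 was -1.47 (SE 0.50, limma adjusted p 0.163), and from EB5 to EB8 Zic2 fell by 1.73 (SE 0.50, limma adjusted p 0.0477). The step from EB5 to EB8 passed by DESeq2 (adjusted p 0.00613) and did not pass by edgeR's quasi-likelihood test (adjusted p 0.0511).

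Zic5 followed the same course at a smaller range. Its WT counts were 1073.1 and 1446.3 at ES, 3417.2 and 4416.8 at EB4, 1604.4 and 1022.4 at EB5, and 377.0 and 750.7 at EB8. Again the EB4 libraries stood above all others. Zic5 rose by 1.64 from ES to EB4 (SE 0.38, limma adjusted p 0.0140) and fell by 1.60 from EB4 to EB5 (SE 0.38, limma adjusted p 0.0380). From EB5 to EB8 its log2 change was -1.27. It did not pass by limma (adjusted p 0.0551) or by edgeR's quasi-likelihood test (adjusted p 0.0669) and passed by DESeq2 (adjusted p 0.0214).

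In WT, 2 of 4 members passed from ES to EB4, where 16.5% of the 16124 genes tested did, 2 from EB4 to EB5 against 3.73% of genes, and 3 from EB5 to EB8 against 10.4%. Single steps depended on single libraries. From ES to EB4, Zic5 lost its call without WT ES replicate 1 (log2 change 1.42, limma adjusted p 0.0691) or WT EB4 replicate 2 (1.46, 0.0864), while without WT ES replicate 2, the library with the high X level, the changes were 2.86 for Zic2 (limma adjusted p 0.0181) and 1.86 for Zic5 (0.0294). From EB4 to EB5 the Zic1 call was lost without WT EB5 replicate 2 (3.79, limma adjusted p 0.0806), and that of Zic5 was lost on leaving out each of the 4 libraries in turn (limma adjusted p 0.0528 to 0.311). From EB5 to EB8 the Zic1 call was lost on leaving out each of the 4 libraries in turn (limma adjusted p 0.0559 to 0.203). That of Zic2 was lost without WT EB5 replicate 1 or either EB8 library (limma adjusted p 0.0860 to 0.334), and so was that of Zic4 (0.0742 to 0.247).

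Over the whole interval of retinoic acid, EB8 against EB4, a comparison chosen after the single steps were seen, the 2 pairs moved in opposite directions. In WT, Zic1 rose by 6.94 (SE 0.71, limma adjusted p 3.02e-05) and Zic4 was at least 29.1-fold higher than the floor at EB4 (limma adjusted p 0.00164). Zic2 fell by 3.20 (SE 0.50, limma adjusted p 0.000654) and Zic5 fell by 2.87 (SE 0.38, limma adjusted p 0.000196). All 4 members passed, against 27.2% of all genes tested. Leaving out any 1 of these libraries kept all 4 calls.

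**Figure D3:**
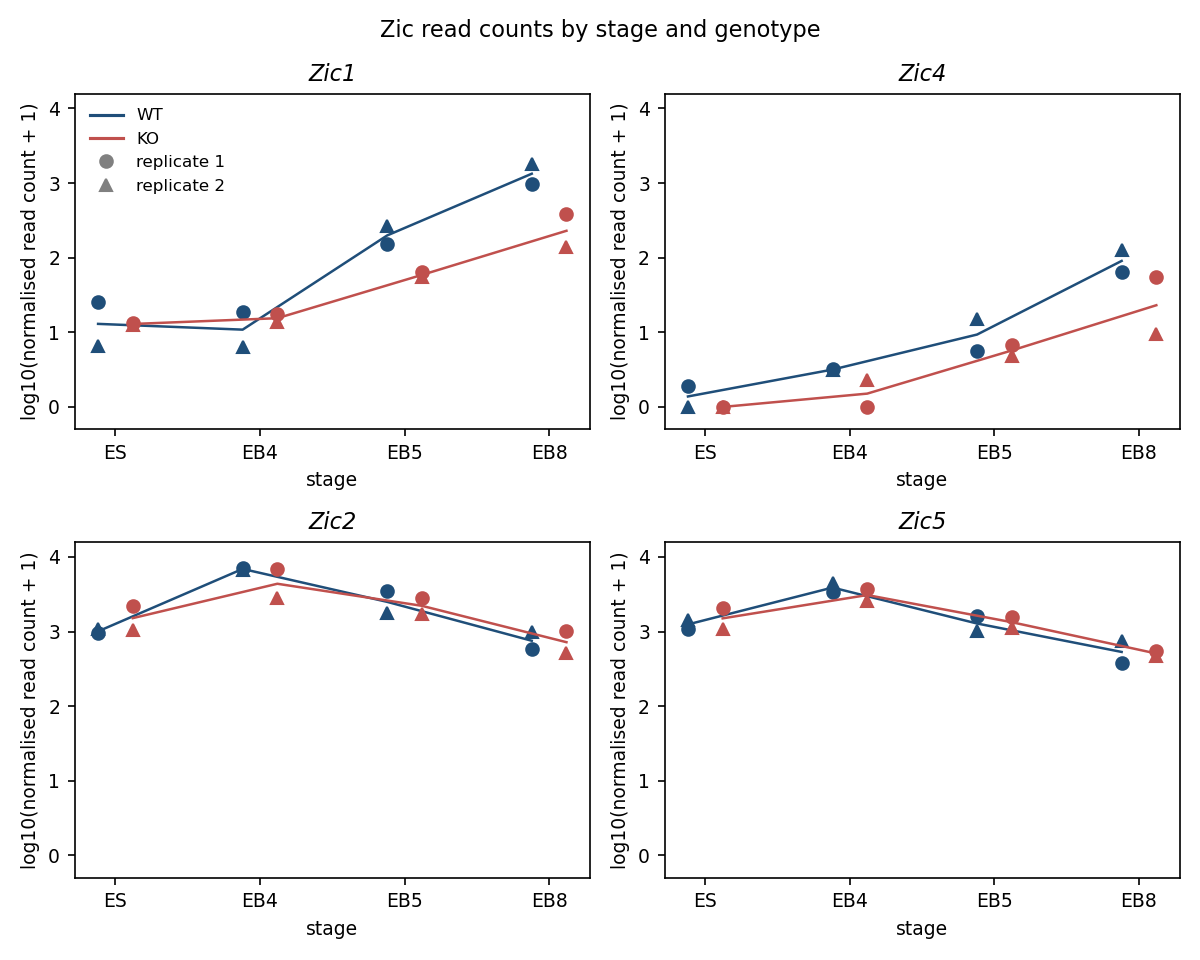
Normalised read counts of Zic1, Zic4, Zic2 and Zic5 on a log10(count + 1) axis at ES, EB4, EB5 and EB8. Circles are replicate 1, triangles replicate 2 and lines join the means of the log values, with WT in blue and KO in red. Zic1 and Zic4 are highest at EB8, where KO lies below WT, and Zic2 and Zic5 are highest at EB4.

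In KO cells Zic1 and Zic4 were again highest at EB8, and Zic2 and Zic5 had their highest means at EB4. The counts of Zic1 were 12.5 and 11.4 at ES, 16.4 and 12.8 at EB4, 62.6 and 53.3 at EB5, and 381.9 and 136.4 at EB8. The EB5 libraries lay above both earlier stages and the EB8 libraries above EB5, with log2 changes of 1.93 (SE 0.71, limma adjusted p 0.194) and 1.96 (SE 0.71, limma adjusted p 0.252) for the 2 steps. Zic4 had counts of 0 and 0 at ES, 0 and 1.3 at EB4, 5.7 and 3.9 at EB5, and 54.9 and 8.5 at EB8. Its 2 EB8 libraries were far apart, and the lower of them was close to the EB5 values.

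Zic2 in KO had counts of 2193.3 and 1042.8 at ES, 6831.9 and 2793.5 at EB4, 2839.6 and 1722.2 at EB5, and 1007.6 and 513.4 at EB8. Zic5 had 2092.0 and 1077.1 at ES, 3669.5 and 2591.8 at EB4, 1577.6 and 1127.7 at EB5, and 549.7 and 467.6 at EB8. Both had their highest mean at EB4, as in WT, and the 2 KO libraries of a stage lay apart, so that for Zic2 the lower EB4 library was below the higher EB5 library. The log2 changes from ES to EB4 were 1.53 for Zic2 (limma adjusted p 0.109) and 1.04 for Zic5 (limma adjusted p 0.141).

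With limma, 0 of 4 members passed in KO from ES to EB4, where 3.5% of genes tested did, 0 from EB4 to EB5, against 2.51%, and 0 from EB5 to EB8, against 0.738%. At an unadjusted p under 0.05 the counts were 2, 3 and 4 members. edgeR's quasi-likelihood test called 0 at each step, and DESeq2 on the same reads called 1, 1 and 3. From EB4 to EB8 all 4 members passed in KO too, against 18.5% of genes. Zic1 rose by 3.89 (SE 0.71, limma adjusted p 0.00358), Zic4 was at least 8.64-fold higher than the floor (limma adjusted p 0.00980), and Zic2 and Zic5 fell by 2.60 each (SE 0.50 and 0.38, limma adjusted p 0.00485 and 0.000976). Without KO EB4 replicate 1 or KO EB8 replicate 1, 3 of the 4 passed and Zic4 did not.

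The comparison of genotypes within a stage asks how the loss of Taf4a bears on the Zic genes before and during neuronal differentiation. Zic1 was lower in KO at EB8, at 381.9 and 136.4 normalised read counts against 980.8 and 1810.5 in WT. Both KO libraries lay below both WT libraries, with means of 259 (SD 174, n = 2) and 1396 (SD 587, n = 2), 5.39-fold lower in KO. The log2 change was -2.54 (SE 0.71, 95% interval -4.09 to -0.99, limma adjusted p 0.0225). On recovered reads it was -2.41 by edgeR's quasi-likelihood test (adjusted p 0.0188) and -2.43 by DESeq2 (adjusted p 0.000712). The limma call was lost without WT EB8 replicate 2 (-2.10, adjusted p 0.148) or KO EB8 replicate 2 (-1.80, adjusted p 0.172), and the direction was the same without any 1 of the 4 libraries. Without KO EB8 replicate 1 the log2 change was -3.28. KO EB8 replicate 2 is a library with the high X level (0.42). KO EB8 replicate 1 was at -0.24 and the WT EB8 libraries were at -0.21 and -0.25. The part of this in the Zic1 result was not tested. In bulk samples, fewer cells that express Zic1 and less Zic1 RNA per cell cannot be told apart.

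At EB5 the Zic1 counts were 62.6 and 53.3 in KO against 149.6 and 261.4 in WT, again without overlap. The log2 change of -1.76 (SE 0.71, 95% interval -3.30 to -0.21) did not pass by limma (adjusted p 0.182) or by edgeR's quasi-likelihood test (adjusted p 0.134) and passed by DESeq2 (adjusted p 0.0376). At ES and EB4, before retinoic acid, the KO and WT libraries of Zic1 overlapped, with all values at 24.6 or less.

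Zic4 at EB8 had 54.9 and 8.5 counts in KO against 64.1 and 124.9 in WT. The groups did not overlap, though the higher KO library was close to the lower WT library. The lower KO library, replicate 2, is the one with the high X level. The log2 change was -1.97 (SE 0.88, 95% interval -3.88 to -0.06, limma adjusted p 0.126). Without KO EB8 replicate 1 it was -3.25 and passed (limma adjusted p 0.0417), and without KO EB8 replicate 2 it was -0.70 (limma adjusted p 0.662), so the value of Zic4 turned on which KO library was used.

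Zic2 and Zic5 had overlapping KO and WT libraries at each of the 4 stages. For Zic2 the log2 changes were 0.59 at ES, -0.66 at EB4, -0.18 at EB5 and -0.06 at EB8 (95% interval at EB8 -1.16 to 1.03). For Zic5 they were 0.27, -0.33, 0.06 and -0.07 (95% interval at EB8 -0.90 to 0.76). Adjusted p-values of limma ran from 0.474 to 0.952 over these 8 comparisons. At EB8 both signs turned under quantile or upper-quartile scaling (0.07 and 0.16 for Zic2, 0.07 and 0.15 for Zic5), where upper-quartile scaling moved the median of all genes to 0.19.

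With limma, 0 of 4 members passed at ES, where 0% of genes tested did, with 1846 of 16124 genes at an unadjusted p under 0.05. At EB4 0 members passed against 6.12% of genes, at EB5 0 against 4.34%, and at EB8 1, Zic1, against 22.9%. The members at an unadjusted p under 0.05 numbered 0, 0, 1 and 2 at the 4 stages. edgeR's quasi-likelihood test called 0, 0, 0 and 1 member and DESeq2 0, 0, 1 and 1. A single member of 4 is near the share of all genes that differed at EB8.

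**Figure D4:**
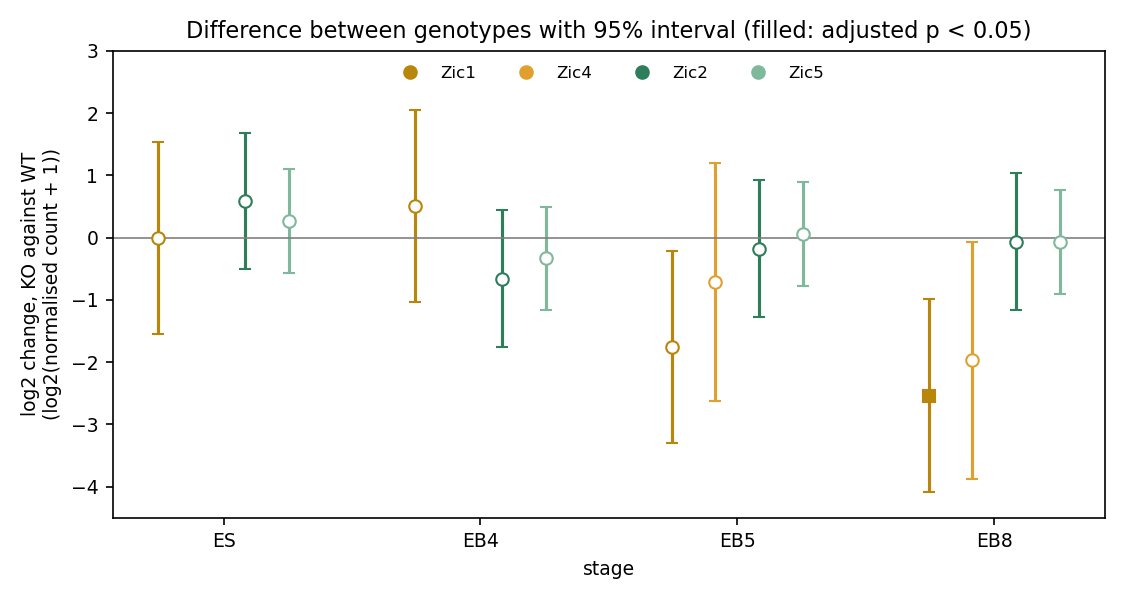
Log2 change of KO against WT, on log2(normalised count + 1), for Zic1, Zic4, Zic2 and Zic5 at each stage, with 95% intervals from limma over 16 libraries. Filled symbols passed an adjusted p of 0.05, and Zic4 is left out at ES and EB4, where it was at the floor. Zic1 at EB8 (-2.54) is the filled point, and the intervals of Zic2 and Zic5 span 0 at every stage.

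Whether the courses themselves differed between genotypes was tested by the difference of the changes, KO minus WT. For EB8 against EB4 it was -3.05 for Zic1 (SE 1.01, 95% interval -5.23 to -0.86, limma adjusted p 0.139), 0.60 for Zic2 (SE 0.71, adjusted p 0.752) and 0.26 for Zic5 (SE 0.54, adjusted p 0.872). Zic1 was thus the member with a difference whose unadjusted interval left out 0, and it did not pass over all genes, also not by edgeR's quasi-likelihood test (adjusted p 0.193) or DESeq2 (adjusted p 0.0557). With limma, 0 of 4 members passed for this interval, against 2.75% of genes, and 0 for the steps from ES to EB4 (0% of genes, 1129 at an unadjusted p under 0.05), EB4 to EB5 (0%, 478) and EB5 to EB8 (0.781%). At an unadjusted p under 0.05 there was 1 member for EB8 against EB4 and 1 for EB5 against EB4, Zic1 in both. edgeR's quasi-likelihood test and DESeq2 called 0 members in each of these comparisons.

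Across the 16 libraries the members fell into the same pairs as on the chromosomes. The Pearson r of log2(normalised count + 1) was 0.94 between Zic1 and Zic4 and 0.92 between Zic2 and Zic5, with Spearman's rho of 0.90 and 0.91. Between the pairs r was negative, from -0.75 for Zic1 with Zic5 to -0.43 for Zic2 with Zic4. These values describe 16 libraries that share groups of stage and genotype, so they hold the stage courses given above.

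The lincRNA 2610035F20Rik, which lies between Zic5 and Zic2, was among the 3 genes most like Zic2 of 13046 compared (r 0.93). In WT its counts were 75.5 and 88.5 at ES, 398.9 and 484.7 at EB4, 140.2 and 157.0 at EB5, and 28.4 and 97.4 at EB8. In KO they were 228.3 and 107.9, 814.3 and 192.7, 300.5 and 160.0, and 125.6 and 45.8. Its EB4 libraries stood above the others in WT, as for Zic2 and Zic5, and its 2 KO EB4 libraries were 4.23-fold apart, with the same library on top as for Zic2.

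The other genes most like Zic2 were Oip5 (r 0.96), which takes part in loading the centromeric histone, and Nampt (r 0.93), an enzyme of NAD synthesis. The mean of Oip5 ran from 672 to 1065 normalised counts over the 8 groups, a narrow range beside that of Zic2, from 761 to 6907. For Zic5 the most alike were Otx2 (r 0.95), a homeobox factor of epiblast and anterior brain, Tulp3 (r 0.93), a Tubby-like protein of the cilium, and Zic2 (r 0.92). Otx2 had group means of 1552 at ES, 6617 at EB4, 1014 at EB5 and 111 at EB8 in WT, and of 1732, 7483, 782 and 121 in KO.

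For Zic1 the most alike were Gm8327 (r 0.97), a gene model with no role given here, Nr2f1 (r 0.97), the orphan nuclear receptor COUP-TFI, and Hoxd4 (r 0.97), a homeobox gene of hindbrain and spinal cord. Nr2f1 had group means of 4.04, 1.10, 779 and 7805 from ES to EB8 in WT, against 2.20, 0.638, 157 and 760 in KO. Hoxd4 had 1320 at WT EB8 against 64.5 at KO EB8. All 3 were near 0 before retinoic acid and lower in KO than in WT at EB5 and EB8 by their means, as Zic1 was. They were picked for likeness to Zic1 over these same libraries, so this match is not a separate result. For Zic4 the most alike were Ttc28, Stau1 and 2610109H07Rik (r 0.95 each), and Ttc28, a protein with tetratricopeptide repeats, had a mean of 2221 at WT EB8 against 1002 at KO EB8.

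The Zic genes work beside other factors of dorsal and ventral neural tube, which were counted as lists. Of 15 genes of the dorsal neural tube and plate border, 13 were tested, and in WT from EB4 to EB8 10 rose and 1 fell by limma, where 27.2% of all genes were called, with a median log2 change of 3.93 against -0.01 over all genes. In KO 8 rose and 1 fell, where 18.5% of all genes were called, with a median of 2.46. At EB8, KO against WT, 5 were lower and 1 higher, where 22.9% of all genes were called, and the median was -1.90 against -0.03 over all genes. Msx3, a homeobox gene of the dorsal neural tube, had 1728.5 and 1648.5 counts in WT EB8 against 9.5 and 2.1 in KO EB8 (log2 change -8.20, limma adjusted p 4.27e-05). Wnt1, a dorsal midline ligand, had 611.2 and 2125.0 against 79.1 and 5.3 (-5.66, limma adjusted p 0.00531). At EB5 the gene called was Pax3, a dorsal paired-box factor, lower in KO (-2.65, limma adjusted p 0.0182). Over all genes, limma called 0% at ES, 6.12% at EB4 and 4.34% at EB5. At ES and EB4 limma called 0 of the 13, with 1 and 3 at an unadjusted p under 0.05, while edgeR's quasi-likelihood test called 0 and 0 and DESeq2 0 and 1.

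Of 8 genes of the ventral neural tube, 7 were tested, and from EB4 to EB8 3 rose in WT and 1 rose in KO, where 27.2% and 18.5% of all genes were called. At EB8, 4 were lower and 1 higher in KO, against 22.9% of all genes called, with a median of -2.84. Shh, the ligand of floor plate and notochord, had 104.0 and 175.8 counts in WT EB8 against 4.2 and 4.3 in KO EB8 (log2 change -4.70, limma adjusted p 0.000717) and Nkx6-1, a homeobox factor of ventral progenitors, had 122.9 and 52.9 against 4.2 and 5.3 (-3.83, limma adjusted p 0.0180). At EB5 1 was called, Foxa2, lower in KO (-4.84, limma adjusted p 0.00900), where 4.34% of all genes were called. Foxa2 is a factor of the floor plate, and the paper also used it as a late endodermal marker. In WT it had risen by 2.49 from ES to EB4 (limma adjusted p 0.0348), stages at which Shh had no reads. Which cells its reads came from was not tested. The lower values at EB8 thus took in both the dorsal and the ventral list.

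Of 8 Gli and Glis zinc finger genes and binding partners, all tested, 5 rose in WT from EB4 to EB8, against 27.2% of all genes called, and in KO 2 rose and 1 fell, against 18.5%. At EB8, 3 were lower in KO, against 22.9% of all genes called, with a median of -0.95. DESeq2 called 5 of the 8 there and edgeR's quasi-likelihood test 3. Mdfi, which encodes an inhibitor that can bind Zic proteins, changed by -1.86 (limma adjusted p 0.0173) and Gli2, a transducer of Hedgehog signals, by -1.62 (limma adjusted p 0.00352). Of 6 genes of the primed, epiblast-like state, 5 were tested. From ES to EB4, the step in which Zic2 and Zic5 rose in WT, 4 rose in WT and 2 in KO, where 16.5% and 3.5% of all genes were called, among them Fgf5, an epiblast growth factor, by 4.13 and 3.27 (limma adjusted p 0.000633 and 0.00690). From EB4 to EB8 4 fell in each genotype, against 27.2% of all genes called in WT and 18.5% in KO. Between the genotypes limma called 1, Sall2, a zinc finger factor, lower in KO at EB5 (-1.74, limma adjusted p 0.0428) and EB8 (-1.59, limma adjusted p 0.0188). Over all genes, limma called 6.12% at EB4, 4.34% at EB5 and 22.9% at EB8. Of the 5, edgeR's quasi-likelihood test called 0 at EB4, 0 at EB5 and 1 at EB8, and DESeq2 called 1, 1 and 2. At an unadjusted p under 0.05 limma had 3 of the 5 at EB4, 2 at EB5 and 2 at EB8. The median of this list was -0.90 at EB4, -0.40 at EB5 and 0.51, above 0, at EB8. The summed counts of its 6 genes overlapped between KO and WT at ES. At EB4 they were lower in KO without overlap, at 32449 to 49145 against 52893 to 84858 in WT. They were lower in KO without overlap at EB5 (4187 to 8974 against 10944 to 11272) and EB8 (3298 to 3660 against 4903 to 5026) too.

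**Figure D5:**
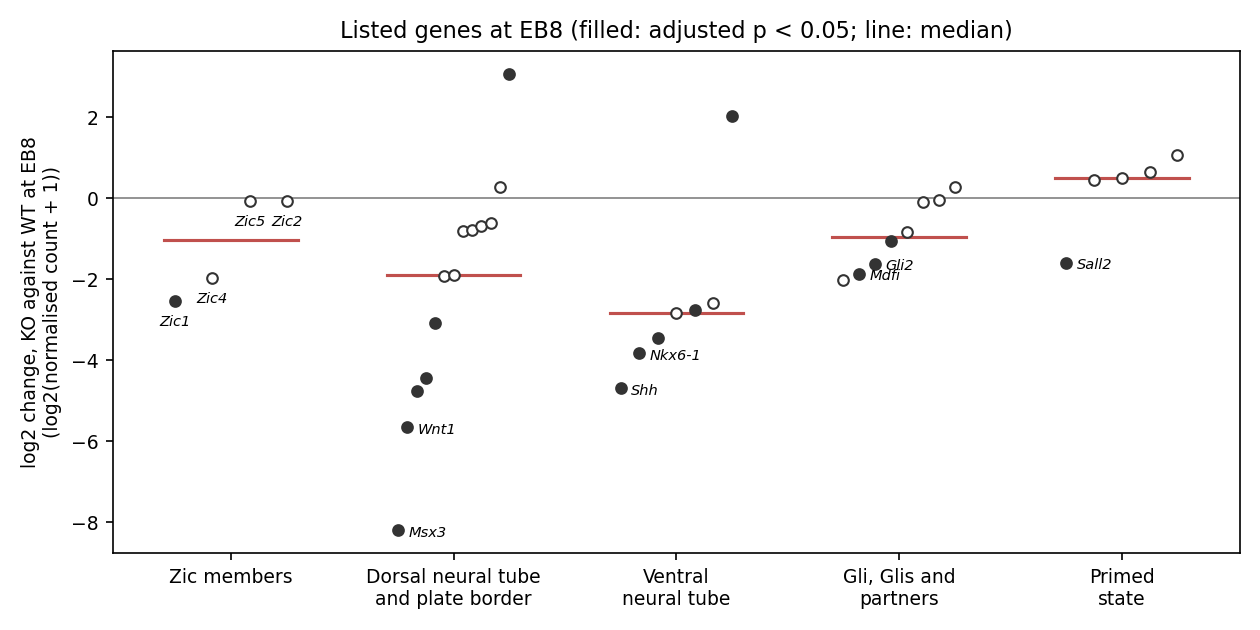
Log2 change of KO against WT at EB8, on log2(normalised count + 1), for the 4 Zic members and the tested genes of 4 lists, a point per gene. Filled points passed a limma adjusted p of 0.05, red lines are medians, and up to 2 genes per list are named. The medians are -1.90 for the dorsal list, -2.84 for the ventral list, -0.95 for Gli, Glis and partners and 0.51 for the primed state.

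The labels call the EB8 libraries of both genotypes neural precursor cells, and markers of this and other cell types also differed between KO and WT at EB8. Sums are over all markers of a list found in the table, and calls over those that passed the filter. Over all genes tested, limma called 22.9% between KO and WT at EB8, 6.12% at EB4 and 4.34% at EB5. The summed counts of 5 markers of neural precursors were 17397 to 22001 in WT and 3798 to 3841 in KO at EB8, and 4 of the 5 tested were lower in KO. The sum over 6 ES cell markers was 1283 to 1520 in WT and 18934 to 20801 in KO, and 5 of 6 were higher. All 3 neuronal markers found were lower in KO at EB8, with sums of 12356 to 15956 in WT against 444 to 936 in KO. Before EB8 their sums ran the other way, without overlap. At ES they were 2452 to 2634 in WT against 4398 to 4556 in KO. At EB4 they were 1136 to 1245 against 1902 to 2237, and at EB5 642 to 824 against 1682 to 2019. Of the 3, limma called 0 at ES, where 1 had an unadjusted p under 0.05. At EB4 it called Tubb3 alone (log2 change 1.46, limma adjusted p 0.0127), and again at EB5 (1.60, 0.0128). The precursor sums were also apart at EB4, before retinoic acid, at 8280 to 10270 in WT against 2864 to 4348 in KO, and at EB5, at 13121 to 20319 against 3982 to 7326. Of the 5, limma called 0 at EB4 and 1 at EB5, with 3 and 4 at an unadjusted p under 0.05, edgeR's quasi-likelihood test called 0 and 1, and DESeq2 1 and 3. The ES cell sums were 22953 to 43140 in WT against 59912 to 81408 in KO at EB4 and 6932 to 10508 against 26535 to 44906 at EB5, with 2 of 6 called higher by limma at each. At EB8 each marker of these 3 lists had reads in all 4 libraries. Their part in the result for Zic1 was not tested.

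Of the markers of 3 other lineages, 0 or 1 per list were called at EB8. Over all genes tested, limma called 0%, 6.12%, 4.34% and 22.9% between KO and WT from ES to EB8. Of 5 feeder markers tested, limma called 0 between KO and WT at each of the 4 stages, with 3, 0, 0 and 0 at an unadjusted p under 0.05 from ES to EB8, edgeR's quasi-likelihood test called 0 at each and DESeq2 called 3, 0, 0 and 0. Their sums were lower in KO without overlap at ES (203 to 472 against 1021 to 2640 in WT), EB4 (444 to 472 against 840 to 1246) and EB5 (952 to 1000 against 1224 to 2123). At EB8 they overlapped, at 866 to 3101 in KO and 2036 to 2625 in WT. From EB4 to EB8, Col3a1 of this list rose by 6.01 in WT and 3.57 in KO. Col1a2 rose by 2.27 in KO and Thy1 fell by 4.21 in WT. The paper describes removal of feeders before EBs formed, for its spontaneous differentiation. Which cells these reads came from was not tested. Of 4 mesoderm and somite markers tested 1, Tcf15, was higher in KO at EB5 and EB8 (log2 changes 2.24 and 2.11, limma adjusted p 0.0240 and 0.00692), with sums of 524 to 1244 in WT and 1239 to 1854 in KO at EB8. Of 4 endoderm markers tested 1, Sox17, was lower in KO at EB8 (-2.68, limma adjusted p 0.0460), with sums of 1453 to 1568 in WT and 1007 to 1080 in KO. Among these lists, Mesp1 was at 0 in both WT EB8 libraries and 1 KO EB8 library, and Lum in 1 KO EB8 library. The part of these markers in the result for Zic1 was not tested.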

How the data were processed

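Poly-A RNA libraries of the 16 samples were prepared with an unstranded kit and sequenced as single-end reads by the authors. The submitters' processing notes name CASAVA 1.7 and 1.8, TopHat2 2.0.10, HTSeq 0.5.4p3, DESeq2 1.0.19 and the build mm9. The annotation release and counting mode are not given in the sources used here. The deposited values are a normalised signal, that is, read counts per gene scaled by one size factor for each library. Dividing by a step fixed for the library, of 0.715 to 1.28 normalised counts, gave whole reads for 100% of values (tolerance 1e-04). Depth is the sum of these reads, and 3 reads or fewer per library were taken as the floor, which covers counting error only, as PCR copies are not independent molecules. No column of the table was left unused.

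The members and gene lists were chosen with earlier results of these data known, so that list counts are descriptions. The named genes are the members, the 3 genes most like each member by Pearson r (mean of at least 50 normalised counts), and up to 2 called genes per list and comparison with the largest change. Of the list genes that this rule allows, the text names a part, and some genes are not reported here.

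Differences were tested with limma on log2(normalised count + 1), fitting 8 group means to the 16 libraries (eBayes with trend). The 16124 genes whose mean reached 10 normalised counts were tested, among them all 4 members. P-values were adjusted by Benjamini-Hochberg over all of these, and an adjusted p under 0.05 was a call. Fold changes on this scale are understated for low genes. The limma script was tested on simulated data. Intervals for differences are at the 95% level. The alternatives were a pseudocount of 0.1 or 5, leaving out the filter or raising it to 50, quantile and upper-quartile scaling, a fit of the compared groups, replicate blocks, edgeR's quasi-likelihood test and DESeq2 on recovered reads, and leaving out each library, where the library left in a group is assumed to vary like the other groups. The comparison of EB8 with EB4 was added after the data were seen. Gene models were those of GENCODE M1 on NCBI37, in which 27603 of 27807 identifiers were found, and promoter sequences those of RefSeq (GRCm38.p6), in which 3 of 4 members had an entry. Versions were R 4.3.3, limma 3.58.1, edgeR 4.0.16, DESeq2 1.42.0 and Python 3.11.15.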

Additional observations from a re-analysis of the deposited data

How the results depend on the processing

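The table gives reads per gene in 2 libraries per group, so that Zic4 at ES and EB4 lay at the floor, and differences within a factor that the KO libraries of a group already span, were not detectable. Calls for EB8 against EB4 were the steadiest, with 3 to 4 members called in WT and 3 to 4 in KO over 15 alternatives each. The differences of the changes between genotypes called 0 members under each of 19 alternatives, and KO against WT at ES and EB4 0 under each of 14.

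For KO against WT at EB5, DESeq2 called 1 member, and at EB8 leaving out a library gave 0 to 2, with 0 without WT replicate 2 or KO replicate 2. In WT from ES to EB4, a fit of the compared groups gave 0 members and leaving out a library 1 to 2. From EB4 to EB5, no filter and edgeR gave 1 each, the compared groups 0, and leaving out a library 0 to 1. From EB5 to EB8, a pseudocount of 0.1 and the compared groups gave 1 each, and leaving out a library 0 to 2. The change of Zic5 in that step passed by DESeq2 (adjusted p 0.0214), with upper-quartile or quantile scaling (limma adjusted p 0.0301 and 0.0315) and without WT EB8 replicate 2 (0.0399). By edgeR's quasi-likelihood test 2 of the 4 members passed in WT from EB5 to EB8, with Zic2 at an adjusted p of 0.0511 and Zic5 at 0.0669. Zic2 also did not pass there with no filter (limma adjusted p 0.0746), a pseudocount of 0.1 (0.0529) or the compared groups (0.0599). In KO, DESeq2 gave 1, 1 and 3 members over the 3 steps. Over all genes, DESeq2 against limma called 465 against 0 at ES, 2090 against 986 at EB4 and 1764 against 700 at EB5 for KO against WT, and the fit of the compared groups called 0 at EB4 and 72 at EB5, so the background shares at these stages depend on the tool. At EB8 no setting outside leaving out a library moved the 3697 genes called by over 1.5 times. The causes were not tested, beyond the smaller number of samples in the fit of the compared groups.

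A sign turned in these cases. Zic1 at ES (-0.0044) was 0.023 with a pseudocount of 0.1, 0.36 with quantile normalisation and -0.98 to 0.97 on leaving out a library. Zic2 and Zic5 at EB8 were 0.071 and 0.065 with quantile normalisation and 0.16 and 0.15 with upper-quartile scaling. On leaving out a library, KO against WT ranged from -0.55 to 0.42 for Zic2 and -0.57 to 0.43 for Zic5 at EB8, -0.67 to 0.32 and -0.27 to 0.38 at EB5, -1.42 to 0.0019 for Zic4 at EB5, -0.21 to 0.75 for Zic5 at ES and -0.26 to 1.28 for Zic1 at EB4. The change of Zic1 from ES to EB4 in WT ranged from -1.24 to 0.72, and the differences of the change from EB4 to EB8 from -0.049 to 1.24 for Zic2 and -0.23 to 0.76 for Zic5.

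The replicate numbers are shared by all groups. The correlation of same-numbered deviations was 0.52 to 0.61 among WT EB4, EB5 and EB8, and -0.18 to -0.05 between WT ES and these. It was 0.23 to 0.42 between KO groups and -0.21 to 0.33 between genotypes at one stage. The numbers thus ran alike over the WT EB stages and over the KO stages, but not between WT ES and the later WT stages. The main fit did not use them, and the labels do not tie a number to a line. With the replicate block alone the counts stayed within 1.5 times the main ones, with 1 member at EB8 for KO against WT. With the replicate block within genotype, KO steps gave 1, 1 and 2 members in place of 0, namely Zic2 from ES to EB4 (limma adjusted p 0.0183), Zic5 from EB4 to EB5 (0.04997), and Zic2 and Zic5 from EB5 to EB8 (0.0298 and 0.0476). In WT, Zic2 from EB4 to EB5 (limma adjusted p 0.0194) and Zic5 from EB5 to EB8 (0.0187) passed too.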

Other observations

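Within KO, replicate 1 lay above replicate 2 at each of the 4 stages for Zic1, Zic2 and Zic5, which held for 16.4% of all 16124 tested genes. The ratio of replicate 1 to replicate 2 was 1.65 to 2.45 for Zic2, 1.18 to 1.94 for Zic5, 1.88 to 4.23 for the lincRNA 2610035F20Rik between them, and 1.09 to 2.80 for Zic1. In WT the ratio was 0.586 to 2.00 for Zic2 and 0.502 to 1.57 for Zic5, on either side of 1, and for the lincRNA it was 0.291 to 0.893. The labels do not say which ES line each number stands for. In KO, the libraries numbered 2 had the high X level at all 4 stages and those numbered 1 did not. The order of the replicates thus ran along with the X level in KO. It was looked for after the data were seen and was not tested.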
